A study of Mus musculus with 24 samples.

Results

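Bulk RNA of old mouse lung was compared between 4 libraries taken after 1 day of reperfusion and 4 libraries of sham-operated lung. These 8 libraries were all those of the 2 groups among the 24 of the series, and were chosen by their titles. All animals were wild-type male C57BL/6J mice, and old mice were 22 to 24 months of age. In the reperfused group the artery, vein and bronchus of the left lung were closed together for 60 min before blood and air were let back in, and lung was taken 1 day later. The old sham lungs carry no stated interval between operation and collection, so a difference in that interval and reperfusion itself cannot be told apart. Libraries of young mice (8 to 12 weeks of age, 4 after 1 day and 4 sham, handled the same way) and of old lung after 1 h of reperfusion served for comparison. All 24 libraries, young lung after 1 h among them, also entered the fit. They set its low-count filter, its scaling and its pooled estimate of spread. The labels do not say that libraries are separate animals, nor whether a library holds only the clamped left lung. The p-values therefore measure the spread between samples, pooled over the 6 groups of the fit.

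Ischemia deprives a tissue of oxygen and substrate, and the return of flow and oxygen brings a burst of oxidants, leakage through the alveolar-capillary barrier and an influx of leukocytes. Neutrophils and monocytes are known to enter the lung in the first hours to days, while alveolar type 2 cells divide and pass through a keratin-rich transitional state to replace lost type 1 cells. Old lungs are known for slower epithelial repair and a higher inflammatory tone. In a bulk tissue library fewer cells of a type and less RNA per cell cannot be told apart.

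Read estimates were summed over the transcripts of each gene symbol, giving 45777 genes, of which 19690 passed a filter on low counts and were tested. Levels are in CPM, counts scaled by the library total after TMM correction, and values for single libraries stand in the order of libraries 1 to 4 of a group. A log2 change is 1 day relative to sham with its standard error (SE), an adjusted p is the Benjamini-Hochberg value of edgeR's quasi-likelihood test over all genes tested, and a gene is said to rise or fall where that value is under 0.05. Old sham libraries held 29863241 to 43600154 estimated reads and old 1 day libraries 30136663 to 33835569. The lung genes Sftpc, Scgb1a1 and Ager, markers of alveolar type 2, club and alveolar type 1 cells, were abundant in all 8 libraries, with no library under 1057 CPM for any of them. The 2 groups separated along the first principal component of the 8 libraries, which held 46.6% of the variance, but library 1 of the 1 day group lay closest to sham (-18.7, against -56.1 to -76.5 for its 3 companions and 43.9 to 67.4 for sham). Among 635 genes that rose more than 2-fold with at least 5 CPM, library 1 was the lowest of its group for 293, and among 653 such falls it was the highest for 419. Library 3 stood apart on the second component (-71.6, 14.2% of the variance). Mitochondrial mRNAs made up 3.13% to 3.95% of the counts in sham and 2.47% to 3.07% after 1 day. Results that rest on a single library are given with and without it.

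After 1 day the old lung had 3945 genes higher (20% of those tested) and 3211 lower (16.3%) than sham. More than 2-fold rises numbered 984 and more than 2-fold falls 1331, and 162 genes rose and 129 fell more than 8-fold. The CPM ranges of the 2 groups did not overlap for 32.2% of all genes tested. Without library 1 of the 1 day group the counts were 3820 higher (19.4%) and 3469 lower (17.6%). The median log2 change of all genes was 0.023, and the gene lists described next are to be read against that value and those shares. With limma on log2(TPM + 1) the counts were 3017 and 3725, with upper quartile scaling 3015 and 3974, with DESeq2 3677 and 3808 and with no low-count filter 3088 and 3182. More genes were lower than higher in each of these 4, so which direction held more genes depended on the choices made. With only the 2 groups compared in the fit, 3050 genes were higher and 2707 lower.

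**Figure D1:**
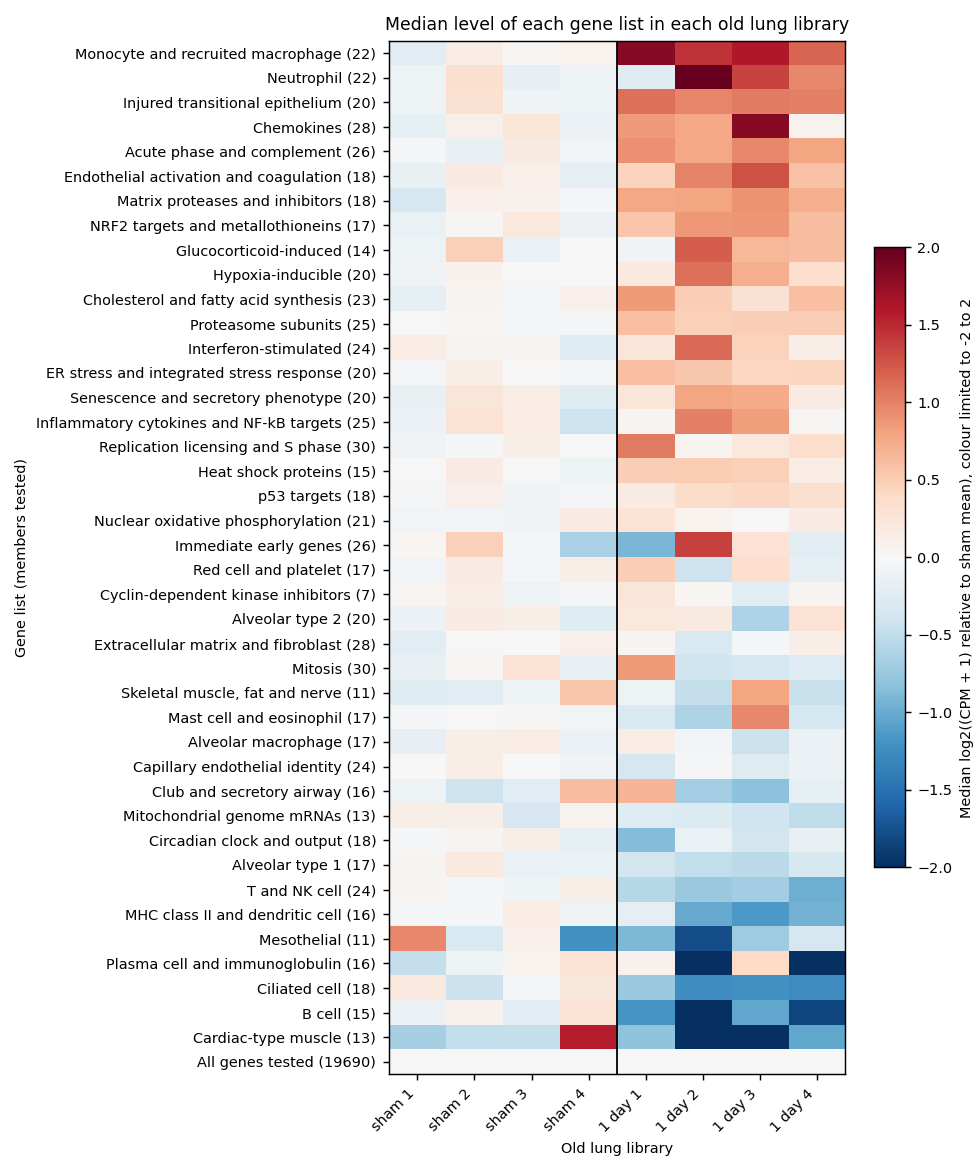
Rows are gene lists with the number of members tested, columns are the 8 old lung libraries, and colour is the median over members of log2(CPM + 1) relative to the sham mean. Monocyte and transitional epithelium lists are red in all 4 libraries taken after 1 day, while the neutrophil list is pale in library 1 (-0.24) and dark in library 2 (2.44); T, B and ciliated cell lists are blue in all 4.

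Genes of monocytes and recruited macrophages rose. Arg1, the arginase of alternatively activated macrophages (Entrez 11846, chromosome 10, 24915207 to 24927470, GRCm38), stood at 0.986, 1.57, 1.45 and 1.64 CPM in the sham libraries and at 386, 106, 255 and 128 CPM after 1 day (log2 change 7.26, SE 0.59, adjusted p = 3.55e-08). All 4 reperfused libraries were far above every sham library. Of 22 monocyte and recruited macrophage genes 18 rose and none fell, with a median log2 change of 1.51; 16 of the 22 had ranges that did not overlap. Lgals3, a galactose-binding lectin of activated macrophages, moved from 107, 152, 124 and 113 CPM to 453, 449.9, 476 and 349.8 CPM (log2 change 1.80, SE 0.13, adjusted p = 4.57e-09). The lysosomal protein Cd68 went from 28.4, 37.5, 35 and 34.1 CPM to 117, 92.7, 72.6 and 78.9 CPM, and Gpnmb, a glycoprotein of lipid-laden macrophages, from 20.8, 27.4, 19.7 and 19.8 CPM to 56, 61.4, 41.2 and 64.7 CPM. Both groups kept apart for each of these genes. Fcgr1, the high-affinity receptor for IgG (log2 change 2.46, adjusted p = 1.63e-05), the matrix proteoglycan Vcan of inflammatory monocytes (3.60, 8.55e-06), secreted Spp1 (1.98, 3.22e-05) and the monocyte chemokine receptor Ccr2 (1.21, 0.00818) rose as well. Trem2, a lipid-sensing receptor, rose by 1.55, but its 24 CPM in library 1 stood over 6.79 to 8.25 in the other 3, and without library 1 the log2 change was 0.92 (adjusted p = 0.00734). Cd5l, a secreted protein of tissue macrophages, had its highest level in library 1 too (27.4, 3.68, 6.81 and 4.09 CPM, against 0.524, 0, 0.363 and 0.378 in sham), with a log2 change of 5.05 with and 3.93 without that library. The complement subunit gene C1qb followed the same order, at 25.9, 33.1, 47.6 and 34 CPM in sham and 148, 50.8, 75.5 and 59.8 CPM after 1 day, and its log2 change was 1.25 with library 1 and 0.81 without it.

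Resident alveolar macrophage genes moved both ways, with 5 of 17 higher, 4 lower and a median of 0.07. Marco, a scavenger receptor, went from 2.47, 4.08, 30.8 and 1.98 CPM to 62.7, 126, 85 and 108 CPM (log2 change 3.29, SE 0.62, adjusted p = 0.000411). Sham library 3 was high for this gene, and without it the log2 change was 5.06. Lipoprotein lipase, Lpl, rose from 160, 217, 194 and 266 CPM to 379.6, 935, 568 and 562 CPM. In the other direction, Siglecf, the sialic acid lectin by which alveolar macrophages and eosinophils are recognised, fell from 7.18, 8.38, 8.21 and 6.68 CPM to 4.89, 2.54, 2.1 and 2.44 CPM (log2 change -1.34, SE 0.28, adjusted p = 0.000675). The cholesterol exporter Abcg1 fell by 0.78 on the log2 scale (adjusted p = 0.000119). Ranges did not overlap for any of these 4 genes.

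Neutrophil genes were higher in libraries 2, 3 and 4 but largely not in library 1. Of 22 members 15 rose and none fell (median 1.53). The summed level of the list was 1372 to 1827 CPM in sham and 2253 to 11440 CPM after 1 day, lowest in library 1. Leaving out library 2 of the 1 day group left 7 rises, and leaving out sham library 3 or 4 left 9; without library 1 there were 16. The granule gene Ngp stood at 1.23, 4.3, 1.51 and 2.94 CPM in sham and 12, 732, 39.4 and 29.6 CPM after 1 day (log2 change 6.33, SE 1.60, adjusted p = 0.00436). Library 2 was far above the others, and without it the log2 change was 3.42 (adjusted p = 0.0426). The calcium-binding alarmin S100a8 had 189, 241, 166 and 186 CPM in sham and 126, 1527, 481 and 474 CPM after 1 day; library 1 lay below all sham libraries. Its log2 change was 1.74 (adjusted p = 0.0187), but 0.88 (0.182) without library 2 and 1.65 (0.0522) without sham library 3. Ly6g, the surface antigen used to sort mouse neutrophils, went from 1.26, 1.62, 0.909 and 0.967 CPM to 1.65, 13, 3.53 and 10.2 CPM (log2 change 2.57, SE 0.75, adjusted p = 0.0107), again highest in library 2 and lowest in library 1. Lactoferrin, Ltf, which glandular epithelium also makes, ran in another order, at 4.87, 7.41, 4 and 17.2 CPM in sham and 439, 385, 20.3 and 117 CPM after 1 day, highest in library 1. Wfdc21, a whey acidic protein family member, moved from 3.39, 5.26, 5.18 and 3.7 CPM to 10.4, 64.3, 24.6 and 22.3 CPM.

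Acute-phase genes rose strongly. Of 26 acute-phase and complement members 18 rose and none fell (median 1.07), though the lowest member stood at -5.65 without a call. Falls numbered 2 without library 3 of the 1 day group and 1 without sham library 2 or 4. They numbered 2 with upper quartile scaling and 3 with DESeq2. Saa3, the serum amyloid A made in inflamed tissue (Entrez 20210, chromosome 7, 46711998 to 46719615), stood at 1.45, 2.34, 2.45 and 0.967 CPM in sham and at 339, 599.6, 198 and 192 CPM after 1 day (log2 change 7.54, SE 0.91, adjusted p = 3.84e-06). The lowest reperfused library held 192 CPM and the highest sham library 2.45 CPM. Lcn2, an iron-siderophore binding lipocalin of neutrophils and injured epithelium, went from 80.1, 162, 153 and 82.6 CPM to 897, 3984, 1156 and 2992 CPM (log2 change 4.24, SE 0.50, adjusted p = 2.21e-06), and the protease inhibitor Serpina3n from 93, 122, 103 and 99.6 CPM to 670.4, 1388, 1056 and 2113 CPM (log2 change 3.65, SE 0.28, adjusted p = 1.61e-08). Serpina3m, its neighbour in a multigene cluster, rose as well (4.14), with a split between cluster members that is uncertain. Orm1, an acute-phase glycoprotein, moved from 0.0925, 0.138, 0.818 and 0.883 CPM to 7.85, 44.9, 10.8 and 24.3 CPM, and Saa1 from 0, 0.165, 0 and 0 CPM to 2.48, 9.27, 3.98 and 9.54 CPM. Orm1 shares sequence with Orm2 and Saa1 with Saa2, so the division between these pairs is uncertain too. The central complement gene C3 did not pass the test (0.14, adjusted p = 0.594) and its ranges overlapped, at 1230, 699.5, 1131 and 834 CPM and 1004, 897, 1010 and 1391 CPM. Lcn2 is a member of the neutrophil list as well, and in library 1, whose neutrophil list median was -0.24 and summed level 2253 CPM (sham 1372 to 1827), Saa3, Lcn2 and Serpina3n stood above every sham library. The part of neutrophil RNA in these rises was not tested.

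**Figure D2:**
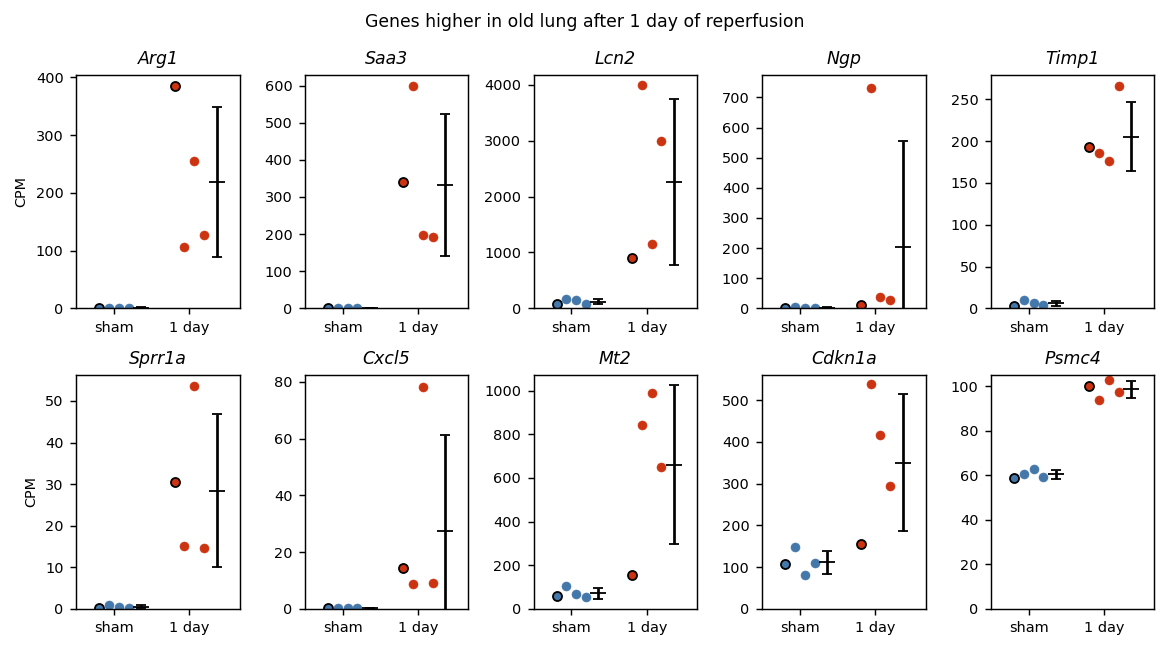
Each panel gives one gene in CPM on a linear axis from 0, with 4 sham libraries in blue and 4 libraries after 1 day in red. Library 1 of each group has a black rim, and the bar is mean and SD over 4 libraries, with lower ends under 0 not drawn; Ngp is carried by library 2 (732 CPM), while for Arg1, Saa3 and Timp1 all 4 red points lie above all blue ones.

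Cytokine genes divided. Of 25 inflammatory cytokine and NF-kB target genes 11 rose and none fell, with a median of 0.68; 14 rose without library 1 and 7 without library 3. Il6 overlapped between groups, at 18, 54.2, 31.1 and 6.68 CPM in sham and 1.65, 73, 78.5 and 7.98 CPM after 1 day (log2 change 0.55, SE 0.75, adjusted p = 0.602). Csf3, the growth factor of neutrophils, stood at 0, 0.579, 0.636 and 0.462 CPM in sham and 1.17, 10.9, 27.4 and 6.45 CPM after 1 day (log2 change 4.75, SE 0.81, adjusted p = 0.000131). The macrophage growth factor Csf1 went from 62.8, 62, 65.4 and 48.7 CPM to 93, 152, 232 and 99.1 CPM and the interleukin 1 antagonist Il1rn from 10.3, 18, 14.7 and 7.88 CPM to 41.2, 111, 83.4 and 13.8 CPM. For Csf3 and Csf1 library 1 was the lowest of the reperfused group and still above all sham libraries, while Il1rn in library 4 lay within the sham range. Interleukin 11, an inducer of fibroblast matrix genes, rose by 2.43 (adjusted p = 0.000765). Ptx3, a pattern recognition protein, was called higher (4.83, adjusted p = 0.00939) on the strength of 143 CPM in library 3; without that library the log2 change was 0.25 (0.855).

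Among 28 chemokine genes 15 rose and 2 fell, with a median of 1.32. Without library 1, 14 rose and 4 fell. The rises numbered 12 without library 3 of the 1 day group and 11 without sham library 1 or 4. Cxcl5, a neutrophil attractant of alveolar epithelium, went from 0.154, 0.22, 0.273 and 0.42 CPM to 14.2, 8.57, 78.2 and 9.08 CPM (log2 change 6.63, SE 0.95, adjusted p = 2.2e-05). Its relative Cxcl3 went from 0.185, 1.6, 1.06 and 0 CPM to 19.1, 45.9, 117 and 8.98 CPM (log2 change 6.10, SE 0.91, adjusted p = 3.81e-05). Library 3 was the highest for both, and every reperfused library lay above every sham library. Cxcl1 did not pass the test with all libraries (1.36, adjusted p = 0.123) and passed it without library 1 (1.74, 0.0333), at 20.6, 49.8, 37.4 and 8.43 CPM in sham and 8.71, 50, 218 and 22.3 CPM after 1 day. The myeloid chemokine Ccl9 (2.54, adjusted p = 1.61e-05), the eotaxin Ccl24 (3.71, 0.00118), the B cell attractant Cxcl13 (2.89, 2.93e-05) and the platelet chemokine Pf4 (2.31, 6.35e-06) also rose. Prok2, a small secreted ligand made by activated neutrophils, was at 0, 0, 0.182 and 0.0631 CPM in sham and 0.558, 15.8, 2.55 and 4.22 CPM after 1 day. Library 2 was again the highest.

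Endothelial activation and coagulation genes rose in 12 of 18 cases and fell in 2 (median 0.97). Tissue factor, F3, which starts clotting, moved from 68, 89.3, 66.9 and 88.1 CPM to 178, 377, 557 and 210.3 CPM (log2 change 2.08, SE 0.31, adjusted p = 2.89e-05). Plat, the tissue plasminogen activator, moved from 67.3, 93.9, 61.9 and 72.2 CPM to 138, 233, 220.2 and 249.9 CPM (log2 change 1.51, SE 0.17, adjusted p = 1.1e-06), and the platelet and endothelial adhesion molecule Selp from 4.5, 18.5, 20.1 and 5.76 CPM to 38.1, 78.2, 94.8 and 45.6 CPM. Groups did not overlap for any of them. Thrombomodulin, Thbd, an anticoagulant receptor of the capillary wall, fell from 775, 921, 908 and 811 CPM to 402, 620, 542 and 508 CPM (log2 change -0.72, SE 0.13, adjusted p = 0.00017). The identity genes of lung capillaries gave 3 rises and 9 falls among 24 (median -0.16). The pan-endothelial adhesion gene Pecam1 overlapped between groups (-0.08, adjusted p = 0.575), whereas Aplnr, the apelin receptor of general capillary cells, fell from 50.1, 42.1, 31.4 and 39.2 CPM to 10.6, 7.59, 16.6 and 9.05 CPM (log2 change -1.90, SE 0.28, adjusted p = 3.14e-05). Sema3c, a guidance ligand, fell by 1.26 and the receptor Tie1 by 0.60 on the log2 scale.

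Stress programs differed in size and evenness. All 25 proteasome subunit genes rose, with log2 changes from 0.28 to 0.89 and a median of 0.54. None of the 25 overlapped between groups, and all 25 rose whichever of the 8 libraries was left out. Psmc4, an ATPase of the regulatory particle, went from 58.6, 60.8, 63 and 59.2 CPM to 100.4, 93.8, 103 and 97.4 CPM (log2 change 0.71, SE 0.06, adjusted p = 3.28e-08). Psmb5, which carries the chymotrypsin-like active site, went from 45.6, 48.8, 46.6 and 41.7 CPM to 94.3, 80.4, 69.2 and 79.5 CPM (log2 change 0.82, SE 0.09, adjusted p = 4.44e-07), and the deubiquitinase Psmd14 from 34.3, 37.4, 35 and 37.6 CPM to 75.6, 62.1, 69.1 and 61.1 CPM (log2 change 0.89, SE 0.10, adjusted p = 1.21e-06). Here library 1 was no outsider, being the highest for Psmb5 and Psmd14. Promoter windows of 300 bases (250 before and 50 after the start, RefSeq, GRCm38.p6) were found for 21 of the 25 genes, 23 windows in all. The antioxidant element TGACNNNGC, searched on both strands, stood in 4 of the 23 (17.4%), beside 13.9% of the windows of all genes tested and 12.4% of all promoters in the table. That share is near the background. Psmb5 and Psmb6 are shown because their match lies close to the start, 47 and 9 bases before it. Psmb6, another catalytic subunit, rose by 0.39 (adjusted p = 0.000563). Psmb5 spans chr14:54617946-54618245 on the minus strand and Psmb6 chr11:70525107-70525406 on the plus strand, and capitals mark the match.
Psmb5: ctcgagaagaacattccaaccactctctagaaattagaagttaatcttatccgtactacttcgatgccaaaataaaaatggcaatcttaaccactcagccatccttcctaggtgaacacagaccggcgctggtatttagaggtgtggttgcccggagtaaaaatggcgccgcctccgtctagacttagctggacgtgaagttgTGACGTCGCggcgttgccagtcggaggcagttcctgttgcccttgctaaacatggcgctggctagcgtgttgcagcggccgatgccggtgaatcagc
Psmb6: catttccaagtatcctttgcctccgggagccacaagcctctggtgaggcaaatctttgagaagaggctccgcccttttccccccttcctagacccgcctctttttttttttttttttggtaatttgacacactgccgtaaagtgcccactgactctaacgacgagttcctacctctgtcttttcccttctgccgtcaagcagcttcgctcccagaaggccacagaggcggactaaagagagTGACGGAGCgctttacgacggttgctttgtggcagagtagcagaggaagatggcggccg

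The list of NRF2 targets and metallothioneins, genes of the antioxidant and metal response, held 13 rises among 17 members and no fall (median 0.74). Hmox1, which degrades heme, stood at 36, 32.7, 54.5 and 37.5 CPM in sham and 176, 176, 287 and 108 CPM after 1 day (log2 change 2.22, SE 0.27, adjusted p = 2.61e-06). The metal-binding Mt2 stood at 58, 107, 67 and 52.3 CPM and 155, 844, 991 and 650.1 CPM (log2 change 3.22, SE 0.46, adjusted p = 2.12e-05), with library 1 far below the other 3 but above sham. The ferritin subunit Fth1 rose from 1923, 1834, 2018 and 1792 CPM to 3322, 6236, 4560 and 6255 CPM, thioredoxin, Txn1, by 0.70 and the NADPH-generating G6pdx by 1.14. Hypoxia-inducible genes rose in 12 of 20 cases and 1 fell (median 0.71). The rises numbered 16 without library 1, and 10 without library 3 of the 1 day group or without sham library 1 or 4. The members with the smallest p were glycolytic. Gapdh went from 172, 193, 196 and 228 CPM to 541, 609, 449 and 476 CPM (log2 change 1.39, SE 0.12, adjusted p = 3.14e-08), Ldha from 189, 219.8, 207 and 198 CPM to 444, 589, 520 and 385 CPM (log2 change 1.25, SE 0.13, adjusted p = 5.04e-07), and Eno1 and Pgk1 rose by 1.46 and 1.28. The ranges of all 4 genes did not overlap between groups.

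Heat shock proteins rose in 6 of 15 cases (median 0.31), and in 3 when sham library 4 was left out. Hspb1, a small chaperone, rose from 70.4, 111, 75.5 and 74.6 CPM to 115, 379.6, 355 and 315 CPM (log2 change 1.81, SE 0.27, adjusted p = 3.33e-05) and constitutive Hspa8 from 639, 782, 734 and 588 CPM to 1225, 1079, 1639 and 978 CPM (log2 change 0.84, SE 0.14, adjusted p = 0.000103). Inducible Hspa1b, whose reads are divided uncertainly with its near-identical neighbour Hspa1a, went from 15.8, 18.1, 18.6 and 12 CPM to 33.8, 23.3, 41.5 and 22.8 CPM (log2 change 0.92, SE 0.29, adjusted p = 0.0157); its adjusted p was 0.074 without library 3 and 0.0613 without sham library 4. The 20 genes of ER stress and the integrated stress response gave 13 rises and 1 fall (median 0.52). The chaperone partner Sdf2l1 went from 9, 8.87, 9.81 and 11 CPM to 36.2, 24, 23.6 and 19.6 CPM (log2 change 1.42, SE 0.22, adjusted p = 4.83e-05), asparagine synthetase, Asns, rose by 1.01 and Hyou1 by 0.76. Herpud1, which takes part in ER-associated degradation, fell by 0.65 (adjusted p = 0.000102). Cholesterol and fatty acid synthesis genes rose in 16 of 23 cases and 1 fell (median 0.61). The rises numbered 11 without library 1 of the 1 day group, without sham library 1 or 3, or with upper quartile scaling. Sqle, the squalene epoxidase, rose from 31.8, 36.5, 35.6 and 44.4 CPM to 96.7, 70.4, 58.4 and 68.6 CPM (log2 change 0.99, SE 0.16, adjusted p = 5.93e-05), and Fdft1, which makes squalene, by 0.83. Scd2, a fatty acid desaturase, fell by 0.89. Interferon-stimulated genes rose in 11 of 24 cases (median 0.51), but in 5 without library 2 of the 1 day group and in 7 without sham library 4. Ifitm3, a restriction factor, rose from 274, 257, 232 and 221 CPM to 373, 698, 378 and 516 CPM, and the oligoadenylate synthetase Oas2 from 19.7, 21.2, 26 and 21.2 CPM to 35.7, 120.3, 43.9 and 50.8 CPM; the log2 change of Oas2 was 1.51, and 0.98 without library 2.

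In the epithelium transitional genes rose, while the alveolar type 1 and ciliated cell lists fell. The alveolar type 2 and club cell lists moved in no single direction. Of 20 injured transitional epithelium genes 15 rose and 2 fell (median 1.01), and the list median was 0.97 to 1.10 in each of the 4 reperfused libraries. Krt7, a simple-epithelium keratin, went from 284, 352, 254 and 255 CPM to 741, 568, 611 and 660.1 CPM (log2 change 1.17, SE 0.10, adjusted p = 6.77e-08). Krt8, Krt18 and Krt19 rose by 1.28, 1.18 and 1.32. The tight junction gene Cldn4 went from 6.81, 6.34, 5.27 and 7.84 CPM to 37.4, 30.4, 21.6 and 35.7 CPM (log2 change 2.25, SE 0.23, adjusted p = 2.89e-07), and the cornified envelope precursor Sprr1a, a gene of stressed epithelium, from 0.185, 0.964, 0.424 and 0.252 CPM to 30.4, 15.1, 53.6 and 14.6 CPM (log2 change 5.96, SE 0.61, adjusted p = 4.49e-07). Even the lowest reperfused library held 14.6 CPM of Sprr1a, against 0.964 in the highest sham library. The EGF receptor ligand Areg rose by 1.87 and stratifin, Sfn, by 1.66. The serine protease gene Prss22 was close to 0 in sham and stood at 6.9, 10.8, 6.88 and 8.77 CPM after 1 day.

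Alveolar type 1 genes fell in 12 of 17 cases and rose in 2 (median -0.38). The falls numbered 8 without library 3 of the 1 day group or sham library 2. They numbered 9 without library 2 of the 1 day group or sham library 1, and 13 without library 4 of the 1 day group. Rtkn2 fell from 201, 170, 173 and 129 CPM to 90.7, 57.3, 17.1 and 56.2 CPM (log2 change -1.60, SE 0.30, adjusted p = 0.000375), and the homeobox-like cofactor Hopx from 731, 721, 586 and 597 CPM to 293, 444, 369.9 and 433 CPM (log2 change -0.78, SE 0.15, adjusted p = 0.000427). Igfbp2 and Sema3e fell by 1.08 and 0.93. Pdpn, the podoplanin of type 1 and other cells, rose by 0.50. Ager was called lower (-0.38, adjusted p = 0.0326), and lost that call without library 2 (0.0906) or 3 (0.0904) of the 1 day group or sham library 1 (0.105) or 2 (0.109). Alveolar type 2 genes did not move one way, with 3 of 20 higher, 3 lower and a median of 0.06; without library 3, 6 rose. Surfactant protein C, Sftpc, fell from 8900, 10980, 9909 and 7341 CPM to 5169, 4169, 3380 and 4044 CPM (log2 change -1.15, SE 0.18, adjusted p = 4.11e-05), while the collectin Sftpd rose from 439, 587, 640.2 and 358 CPM to 879.8, 984, 477 and 1320 CPM (log2 change 0.86, SE 0.23, adjusted p = 0.00623). The alarmin Il33 rose from 51.9, 62.5, 58.9 and 42.1 CPM to 150.3, 187, 131 and 185 CPM, and Hc, the gene of complement C5, fell from 339.5, 526, 422 and 405 CPM to 172, 126, 99.7 and 119 CPM. Lysozyme, Lyz2, which type 2 cells share with macrophages, fell by 0.93.

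Ciliated cell genes of the airway fell in 16 of 18 cases with no rise (median -1.19). Tppp3, a microtubule bundler, fell from 318, 256, 277 and 272 CPM to 129.9, 112, 119 and 115 CPM (log2 change -1.24, SE 0.11, adjusted p = 7.94e-08). The central-pair protein Hydin fell from 49.6, 32.1, 42.4 and 54.8 CPM to 20.4, 10.5, 11.2 and 15.5 CPM (log2 change -1.64, SE 0.27, adjusted p = 9.01e-05), and the dynein subunits Dnah12 and Dynlrb2 fell by 1.49 and 1.57. Foxj1, the transcription factor of motile cilia, did not pass the test (-0.58, adjusted p = 0.0618), though it did without library 3 (-0.69, 0.0432) or sham library 2 (-0.73, 0.0221). The club and secretory list did not move one way, with 3 of 16 higher, 4 lower and a median of -0.06. The falls were of club cell enzymes and secretoglobins. Cyp2f2, a club cell cytochrome P450, went from 3392, 1912, 2195 and 3165 CPM to 926, 197, 631 and 430.2 CPM (log2 change -2.29, SE 0.33, adjusted p = 1.85e-05), Scgb3a2 from 399.8, 267, 494 and 700 CPM to 126, 44.9, 93 and 61 CPM (log2 change -2.52, SE 0.45, adjusted p = 0.000219), and the carbonyl reductase Cbr2 from 3974, 3142, 3337 and 3358 CPM to 1431, 713, 1445 and 1432 CPM (log2 change -1.46, SE 0.26, adjusted p = 0.000204). Scgb1a1, the main club cell secretory protein, fell by 0.68 and kept the highest level of these genes.

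**Figure D3:**
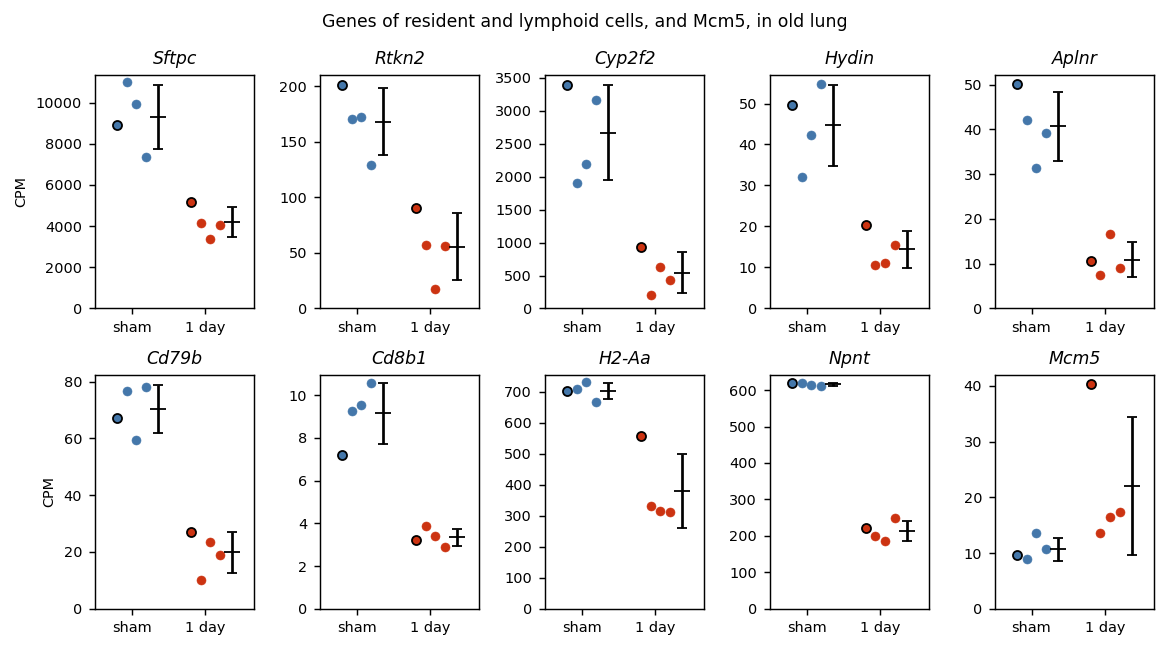
Each panel gives one gene in CPM on a linear axis from 0, with sham libraries in blue, 1 day libraries in red, library 1 of each group rimmed in black, and mean and SD over 4 libraries as the bar. The first 9 genes lie lower in every reperfused library than in every sham library, and Mcm5 is highest in library 1 of the 1 day group (40.4 CPM).

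Matrix genes moved in both directions, with 8 of 28 higher, 7 lower and a median of 0.03. Tnc, the tenascin of wounds, rose from 9.21, 23.9, 23.8 and 21.3 CPM to 296, 54.5, 169 and 143 CPM (log2 change 3.08, SE 0.49, adjusted p = 7e-05), the basement membrane collagen Col4a1 by 1.07 and the fibrillar collagen Col3a1 by 1.39. Npnt, a basement membrane ligand of integrins, fell from 619, 619.6, 615 and 611 CPM to 222, 198, 187 and 249.6 CPM (log2 change -1.52, SE 0.16, adjusted p = 3.82e-07), and its sham libraries lay between 611 and 619.6 CPM. Inmt, a methyltransferase abundant in lung fibroblasts, fell from 1355, 1056, 1117 and 1103 CPM to 382, 412, 208 and 619 CPM, and the fibroblast ligand Wnt2 fell by 1.31. Of 18 matrix proteases and inhibitors 10 rose and 1 fell (median 0.96). Timp1, an inhibitor of metalloproteinases (Entrez 21857, chromosome X, 20870166 to 20874737), went from 3.51, 9.53, 6.82 and 4.18 CPM to 193, 186, 176 and 266 CPM (log2 change 5.10, SE 0.40, adjusted p = 2.08e-08). It was among the most even of the large rises, with reperfused libraries from 176 to 266 CPM. Mmp14, a membrane-bound collagenase, rose by 1.63, the stromelysin Mmp3 by 2.17 and the lysosomal protease Ctsb by 0.97. Mesothelial genes fell in 5 of 11 cases and rose in 1 (median -1.26). Gpm6a fell from 111, 73.5, 65.3 and 58.7 CPM to 34.1, 20.5, 30.5 and 31.7 CPM and Rspo1, a Wnt amplifier, by 1.81, whereas Msln overlapped between groups (0.54, adjusted p = 0.436). How much pleural surface each library held was not tested.

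Cardiac-type muscle genes, which mouse lung expresses in the sleeves of its veins, fell in 5 of 13 cases (median -1.99), in 2 without sham library 4 and in 3 without library 2 or library 3 of the 1 day group. Actin Actc1 stood at 107, 111, 125 and 493 CPM in sham and 62.7, 7.78, 11.2 and 8.53 CPM after 1 day (log2 change -3.21, SE 0.73, adjusted p = 0.00188). Phospholamban, Pln, stood at 15.9, 18.9, 18 and 89.9 CPM and 7.73, 1.97, 0.286 and 3.76 CPM (log2 change -3.37, SE 0.88, adjusted p = 0.00531), and the muscle LIM protein Csrp3 at 11, 8.87, 14.2 and 46.2 CPM and 3.85, 0.222, 0.286 and 0.581 CPM (log2 change -3.99, SE 0.96, adjusted p = 0.00298). Sham library 4 was several times above the other sham libraries for all of these, and the content of vein in each piece of tissue was not tested.

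Lymphocyte genes were lower. T and NK cell genes fell in 20 of 24 cases with no rise (median -0.88), and B cell genes in 14 of 15 with no rise (median -1.64). Cd8b1, a chain of the cytotoxic T cell co-receptor, went from 7.21, 9.26, 9.54 and 10.6 CPM to 3.21, 3.87, 3.41 and 2.9 CPM (log2 change -1.45, SE 0.18, adjusted p = 3.01e-06), and Trbc2, a constant region of the T cell receptor, from 18, 13.1, 15.5 and 17.3 CPM to 6.64, 6.19, 9.01 and 6.29 CPM (log2 change -1.18, SE 0.17, adjusted p = 1.35e-05). The kinase Lck fell by 0.96, and Themis, a T cell signalling protein, fell from 4.32, 3.08, 4.7 and 3.72 CPM to 2.21, 1.17, 1.15 and 1.04 CPM. Cd79b, of the B cell receptor complex, went from 67.2, 76.6, 59.6 and 78 CPM to 27, 10.2, 23.4 and 18.8 CPM (log2 change -1.82, SE 0.35, adjusted p = 0.000376), the IgM receptor Fcmr from 32.9, 33.4, 27.4 and 42.5 CPM to 13.7, 3.59, 6.08 and 6.11 CPM, and the transcription factor Spib fell by 1.48. No reperfused library overlapped sham for these genes. The heavy chain Ighm, made by B and plasma cells, did not follow, at 538, 498, 1793 and 1796 CPM in sham and 333, 46, 3643 and 128 CPM after 1 day. Its log2 change was -0.16 (adjusted p = 0.906), and -2.79 (0.00211) without library 3, the highest of all 8. Of 16 plasma cell and immunoglobulin genes 2 rose and 1 fell, and 5 fell without library 1 or without library 3. MHC class II and dendritic cell genes fell in 9 of 16 cases with no rise (median -0.73), and in 12 without library 1. H2-Aa, a class II chain, went from 702, 710.2, 731 and 666 CPM to 556, 332, 315 and 312 CPM (log2 change -0.89, SE 0.16, adjusted p = 0.000165), and Siglech, of plasmacytoid dendritic cells, fell by 1.72. Mast cell and eosinophil genes gave 5 rises and 5 falls among 17; the rises numbered 1 without library 3 of the 1 day group, 2 without sham library 1 or 4 and 3 without sham library 2. Ms4a2, the beta chain of the IgE receptor, fell from 2.93, 3.22, 1.64 and 1.89 CPM to 0.586, 0.444, 0.637 and 0.122 CPM.

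Replication genes were highest in library 1, and their count of rises changed with the libraries used. Of 30 genes of replication licensing and S phase 14 rose and none fell (median 0.52), but without library 1 of the 1 day group 4 rose and 2 fell, and without sham library 1, 2, 3 or 4 the rises numbered 7, 9, 9 or 8. The summed level of the list was 311.6 to 358.3 CPM in sham and 359 to 733.3 CPM after 1 day, with library 1 the highest. Mcm5, a subunit of the replicative helicase, stood at 9.59, 8.98, 13.6 and 10.6 CPM in sham and 40.4, 13.6, 16.5 and 17.4 CPM after 1 day. Its log2 change was 1.04 (adjusted p = 0.0059) with library 1 and 0.56 (0.045) without it. Pcna, the sliding clamp, went from 50.3, 54.9, 53.6 and 48.5 CPM to 89.8, 61.5, 70.1 and 60.9 CPM (log2 change 0.45, SE 0.11, adjusted p = 0.00321), and Gins1, which joins the helicase, from 1.02, 1.07, 1.48 and 1.37 CPM to 4.97, 2.38, 1.97 and 3.45 CPM (log2 change 1.37, SE 0.32, adjusted p = 0.00211). Without library 1 both kept their calls, Pcna at 0.30 (0.0232) and Gins1 at 1.06 (0.0119). Of 30 mitosis genes 2 rose and 1 fell (median 0.09), and without library 1 none rose and 4 fell. The proliferation marker Mki67 stood at 12.5, 16.5, 23 and 14.3 CPM in sham and 39.8, 12.8, 13.5 and 13.3 CPM after 1 day (0.26, adjusted p = 0.689). Libraries 2 to 4 lay within the sham range, and library 1 was above it. The centromeric histone Cenpa fell by 0.76 (adjusted p = 0.0169; 0.0547 without library 2).

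The promoters of 3 helicase subunits called higher with all 8 libraries are shown because they carry the letters of the E2F element (TTTGGCGC or TTTCCCGC, both strands, in capitals), by which S phase genes are known to be switched on. Mcm6 and Mcm7 rose by 0.51 and 0.51 (adjusted p = 0.0436 and 0.0164), and without library 1 stood at 0.18 and 0.26 (0.362 and 0.126). Mcm6 also lost its call without library 3 (0.057) and without sham library 1 (0.124), 2 (0.0769), 3 (0.0552) or 4 (0.0864). The element was in 3 of 13 windows of the 10 called replication genes with a window (23.1%), beside 2.35% for all genes tested and 1.56% for all promoters in the table. CCAAT on either strand was in 10 of the 13 (76.9%), beside 36.8% for all genes tested. Neither share was set beside that of uncalled replication genes, so they describe the list and not what set its called members apart. The windows span chr8:75109259-75109558 (plus strand, match 149 bases before the start) for Mcm5, chr1:128359656-128359955 (minus strand, 110 and 47 bases before) for Mcm6 and chr5:138171834-138172133 (minus strand, 165 bases before) for Mcm7, with RefSeq letters of GRCm38.p6.
Mcm5: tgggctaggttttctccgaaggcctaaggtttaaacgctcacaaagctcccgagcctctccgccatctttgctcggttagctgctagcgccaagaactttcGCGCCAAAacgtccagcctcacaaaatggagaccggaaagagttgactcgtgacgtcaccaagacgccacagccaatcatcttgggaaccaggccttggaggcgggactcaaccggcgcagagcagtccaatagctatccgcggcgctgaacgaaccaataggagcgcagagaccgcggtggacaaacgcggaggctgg
Mcm6: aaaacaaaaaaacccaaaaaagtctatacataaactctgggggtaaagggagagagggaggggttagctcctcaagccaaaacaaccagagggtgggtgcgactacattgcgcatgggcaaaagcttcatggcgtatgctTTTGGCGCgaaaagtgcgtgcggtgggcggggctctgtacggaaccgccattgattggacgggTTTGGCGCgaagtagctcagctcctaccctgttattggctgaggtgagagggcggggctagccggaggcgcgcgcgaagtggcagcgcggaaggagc
Mcm7: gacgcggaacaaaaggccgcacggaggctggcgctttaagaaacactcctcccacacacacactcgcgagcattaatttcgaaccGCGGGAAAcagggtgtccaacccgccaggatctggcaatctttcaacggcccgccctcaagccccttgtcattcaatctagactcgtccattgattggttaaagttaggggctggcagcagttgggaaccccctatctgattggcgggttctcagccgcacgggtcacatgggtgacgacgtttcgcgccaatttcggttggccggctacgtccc

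Among cyclin-dependent kinase inhibitors 2 of 7 rose. Cdkn1a, the p21 inhibitor, went from 108, 148, 80.5 and 110 CPM to 154, 538, 416 and 294 CPM (log2 change 1.65, SE 0.30, adjusted p = 0.000276), with library 1, where Mcm5 and Mki67 were highest, the lowest of the reperfused group. Cdkn2d rose by 0.89, and by 0.55 without library 2. Cdkn2a, a gene of senescent cells, lay between 0.394 and 1.54 CPM in all 8 libraries and did not pass the test (0.13, adjusted p = 0.864). Of 18 p53 targets 8 rose and 2 fell (median 0.34). The nuclease gene Aen went from 24.7, 25.3, 25.2 and 26.8 CPM to 45.3, 40.8, 60.2 and 46.1 CPM (log2 change 0.92, SE 0.12, adjusted p = 5.8e-06) and the death effector Bax rose by 0.55, while the stress sensor Sesn1 fell by 1.00.

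Glucocorticoid-induced genes rose in 6 of 14 cases with no fall (median 0.59). The list median was -0.06 in library 1 and 0.61 to 1.21 in libraries 2 to 4. Sgk1, a salt-regulating kinase, stood at 117, 218, 133 and 145 CPM in sham and 174, 435, 342 and 279 CPM after 1 day (log2 change 1.00, SE 0.24, adjusted p = 0.00217). The receptor co-chaperone Fkbp5 stood at 39.5, 106, 71.5 and 84.5 CPM and 69, 282, 307 and 244 CPM (log2 change 1.58, SE 0.45, adjusted p = 0.00911), and the lipase inhibitor Angptl4 at 47.4, 37.8, 62 and 49.6 CPM and 122, 193, 198 and 217 CPM (log2 change 1.89, SE 0.30, adjusted p = 5.61e-05). Library 1 lay within the sham range for Sgk1 and Fkbp5 and above it for Angptl4 and the other 3 genes that rose, Lcn2, Mt2 and Cdkn1a. Circadian genes rose in 2 of 18 cases and fell in 5 (median -0.37). The clock repressor Nr1d1 fell from 289, 257, 299 and 260.1 CPM to 106, 85.5, 123 and 123 CPM (log2 change -1.34, SE 0.29, adjusted p = 0.00129), and the leucine zipper repressor Nfil3 rose from 11.1, 17, 11.7 and 11.3 CPM to 16.5, 72.9, 64.3 and 28.3 CPM. The hour of day at which lungs were taken is not given, and its part was not tested.

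Immediate early genes were mixed, with 7 of 26 higher and 3 lower (median 0.28). The rises numbered 3 without library 2 of the 1 day group or sham library 1 or 4, and 4 without library 3 or sham library 3, and the falls numbered 6 without library 2. Myc, a growth-promoting factor, rose from 13.5, 24.8, 20.7 and 15.2 CPM to 38.1, 104, 102 and 44.2 CPM (log2 change 1.96, SE 0.29, adjusted p = 3.33e-05), and the AP-1 subunit Fosl1 from 1.2, 1.49, 1.21 and 0.441 CPM to 3.66, 7.36, 28.5 and 4.83 CPM (log2 change 3.37, SE 0.64, adjusted p = 0.000365). The orphan nuclear receptor Nr4a3 fell from 113, 99.3, 98.2 and 41.4 CPM to 3.55, 9.43, 24.7 and 4.58 CPM (log2 change -3.06, SE 0.47, adjusted p = 4.31e-05) and Nr4a2 by 1.82. After 1 h of reperfusion, against the same sham libraries, Nr4a3 stood at a log2 change of 1.71 (adjusted p = 0.00663), Hspa1b at 6.46 (1.35e-10), Arg1 at 0.24 (0.792), Saa3 at 2.58 (0.0196) and Timp1 at 1.93 (0.000478).

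The largest falls included genes of no list. Gsg1l, which encodes an AMPA receptor auxiliary subunit, stood at 5.98, 5.87, 7.39 and 5.65 CPM in sham and 0.614, 0, 0.191 and 0.153 CPM after 1 day (log2 change -4.64, SE 0.46, adjusted p = 1.99e-07). Colq, the collagen tail that anchors acetylcholinesterase, went from 26.8, 27.3, 29.8 and 31.7 CPM to 3.38, 1.24, 3.09 and 1.68 CPM (log2 change -3.62, SE 0.29, adjusted p = 2.41e-08), and the Wnt ligand Wnt10b from 28.7, 21.6, 29.2 and 28.6 CPM to 2.15, 1.62, 3.56 and 2.93 CPM (log2 change -3.39, SE 0.24, adjusted p = 3.63e-09). Each reperfused library lay far below every sham library for all 3, and sham library 2 was the lowest of its group for Wnt10b. Ogn, a small leucine-rich proteoglycan of stroma, went from 252, 219, 232 and 282 CPM to 43.8, 20.1, 42.2 and 25.9 CPM (log2 change -2.90, SE 0.22, adjusted p = 1.24e-08). Ackr4, a scavenger of homeostatic chemokines, fell by 3.02, the basement membrane protein Fras1 by 2.76 and Tbata by 3.48.

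The change in old lung was set against that in young lung, where 5497 genes rose (27.9%) and 5119 fell (26%), or 53.9% of genes together. No library is shared between the 2 comparisons. Of the genes that rose in old lung 2589 rose in young lung too, which is 65.6% of the old and 47.1% of the young rises. Falls in both numbered 1751, which is 54.5% of the old and 34.2% of the young falls. Another 177 genes rose in old and fell in young lung, and 145 did the opposite. Across all genes tested the 2 sets of log2 changes had a Pearson correlation of 0.35 and a Spearman correlation of 0.52; genes are not independent replicates. The difference between ages itself passed the test for 5974 genes (30.3%), 2990 with the higher and 2984 with the lower change in old lung. Young libraries after reperfusion, at 1 h as well as at 1 day, stood apart in base composition. GC content was correlated (Spearman) with each gene's deviation from its mean over all 24 libraries, so values are relative to the other libraries. The correlation was 0.195 to 0.438 in young lung after 1 day and 0.288 to 0.43 in young lung after 1 h. It was -0.191 to -0.019 in old lung after 1 day, -0.287 to -0.175 in old lung after 1 h and -0.34 to -0.226 in both sham groups. With that trend removed, an adjustment chosen after seeing the data, 4154 genes passed (21.1%), of which 3273 passed both ways. A GC value was available for 17878 of the genes tested (90.8%), and the other genes entered that fit unadjusted.

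**Figure D4:**
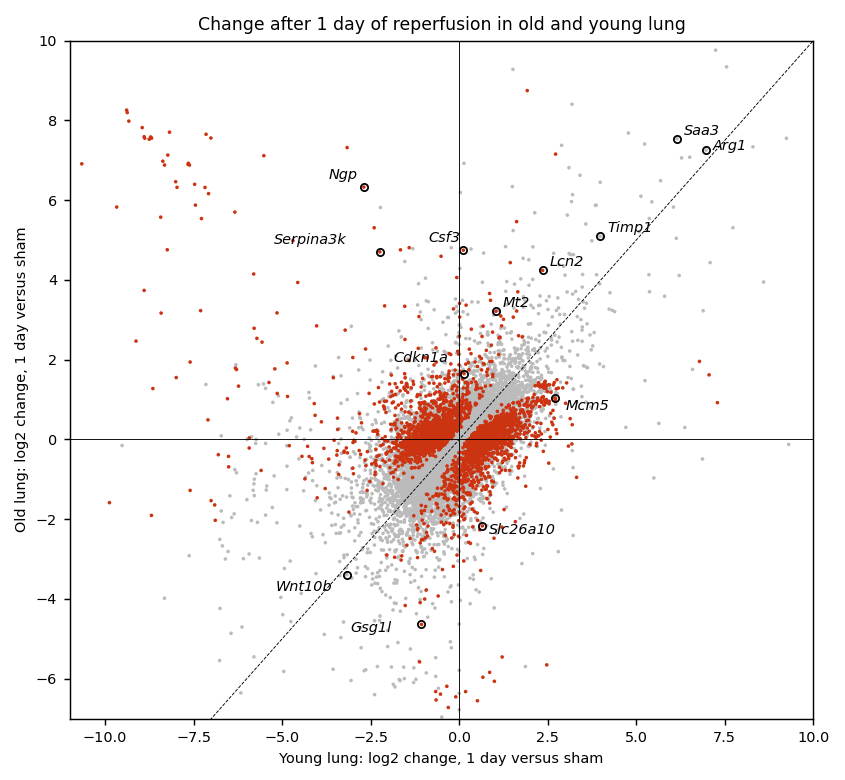
Each point is a gene, with its log2 change from sham to 1 day in young lung on the horizontal axis and in old lung on the vertical axis; red points (3273 genes) differed between ages with and without the GC trend, 6 genes lie outside the axes and the dashed line marks equal change. Arg1 and Timp1 lie near the line, Ngp, Csf3 and Serpina3k above it and Mcm5 below it.

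Arg1, Saa3, Timp1, Hmox1 and Sprr1a did not pass the test of a difference, with log2 changes in old and young lung of 7.26 and 6.97, 7.54 and 6.15, 5.10 and 3.98, 2.22 and 2.43, and 5.96 and 5.44. The differences were 0.28 (SE 0.69), 1.39 (SE 1.04), 1.12 (SE 0.48), -0.21 (SE 0.36) and 0.52 (SE 0.79) in that order, and a difference within those errors is not shown to be absent. Several inducible genes rose more in old lung. Csf3 was at 4.75 in old and 0.12 in young lung (difference 4.63, SE 1.08, adjusted p = 0.00304), Mt2 at 3.22 and 1.04 (difference 2.18, SE 0.60, adjusted p = 0.00979), and Cdkn1a at 1.65 and 0.14 (difference 1.51, SE 0.42, adjusted p = 0.01). Plat (difference 1.41, SE 0.24, adjusted p = 0.000225) and Lpl (difference 1.82, SE 0.32, adjusted p = 0.000339) had a higher change in old lung too. So did 11 of 14 glucocorticoid-induced genes, and 10 with the GC trend removed. Of the 14, 6 rose and 0 fell in old lung (median 0.59), while 3 rose and 7 fell in young lung (median -0.59). In that list, Sgk1 changed by 1.00 in old and -0.54 in young lung (difference 1.55, SE 0.33, adjusted p = 0.00153). Neutrophil genes differed for 8 of 22 members, all with the higher change in old lung, and for 5 with the trend removed; Ngp changed by 6.33 in old and -2.69 in young lung (difference 9.02, SE 2.18, adjusted p = 0.00432). The old value of Ngp rested in large part on library 2, without which it was 3.42.

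Cell cycle genes went the other way. Of the replication list 29 of 30 rose in young lung and 17 had a lower change in old than in young lung, also 17 with the trend removed. Pcna changed by 0.45 in old and 1.35 in young lung (difference -0.91, SE 0.16, adjusted p = 0.000257), and Mcm5 by 1.04 and 2.70 (difference -1.66, SE 0.39, adjusted p = 0.00311). Of the mitosis list 29 of 30 rose in young lung, and 21 had a lower change in old lung (23 with the trend removed). Aurka, a mitotic kinase, changed by 0.82 in old lung (adjusted p = 0.0363, but 0.14 without library 1 and 0.0958, 0.107 and 0.0853 without sham library 1, 2 and 4) and by 2.27 in young lung (difference -1.44, SE 0.42, adjusted p = 0.0129). Lower changes in old lung were also found for 7 of 15 B cell genes, 3 with the trend removed. Fcmr changed by -2.20 in old and -0.18 in young lung (difference -2.03, SE 0.52, adjusted p = 0.00579). The fibroblast genes Inmt (difference -1.43, SE 0.32, adjusted p = 0.00184) and Wnt2 (difference -1.44, SE 0.36, adjusted p = 0.00453) and surfactant gene Sftpc (difference -0.96, SE 0.25, adjusted p = 0.0059) fell in old lung and had changes of -0.08, 0.12 and -0.18 in young lung. Gsg1l (difference -3.57, SE 0.58, adjusted p = 0.000154) and the transporter gene Slc26a10 (difference -2.82, SE 0.46, adjusted p = 0.000179) were among the largest of these differences, and in the other direction Serpina3k, a relative of Serpina3n from the same cluster, changed by 4.70 in old and -2.24 in young lung (difference 6.94, SE 0.96, adjusted p = 5.22e-05). Nuclear genes of oxidative phosphorylation rose in 4 of 21 cases in old lung (median 0.16; 2 without sham library 1) and in 16 of 21 in young lung, with a lower change in old lung for 13, the same number with the trend removed.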

How the data were processed

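Lung RNA was sequenced from stranded mRNA libraries, per the labels' protocols. The deposited table lists 129299 transcripts of 45777 gene symbols on GRCm38 (mm10) and gives 3 measures per library. HISAT2 and StringTie appear, without versions, in the submitters' processing notes. The read counts the authors deposited are expected counts: depending on the library, 98.93% to 99.48% of the values below 50 were the product of FPKM, transcript length and a constant, rounded up. The FPKM deposited by the authors, scaled by transcript length and library total, served only for that check. The TPM deposited by the authors, scaled to a common sum, served in an alternative.

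Counts were summed by gene symbol as deposited, and the sums were rounded to whole numbers only for DESeq2. Genes were kept by filterByExpr (minimum count 10) of edgeR 4.0.16 in R 4.3.3. TMM factors ranged from 0.8805 to 1.0917. The robust glmQLFit model used all 24 libraries and had a mean for each of 6 groups. Two-sided quasi-likelihood F tests were adjusted by Benjamini-Hochberg over the 19690 genes tested, with a threshold of 0.05. The biological coefficient of variation was 23.2%. The SE of a log2 change is its size over the square root of F. No interval for counting error is given, since the deposited values are estimates. Counts were also simulated for the same 24 libraries, with each gene's spread taken from the fitted trend. Of 19690 genes, 100 were changed by 1 and 100 by 2 on the log2 scale in old lung after 1 day. Of these 54% and 88% were called, in that order, and 5 of the unchanged genes. In the data 7156 genes were called, which makes the Benjamini-Hochberg adjustment less strict. Those shares are therefore not the detection rate of the comparison itself.

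The 8 libraries of old sham and old 1 day were compared, and the change was tested against that in young lung as an interaction. The members of this comparison and the 41 gene lists were chosen with earlier results of these data known, and lists are described by counts and medians without a test of the list. Genes named are the 15 largest rises and 15 largest falls that reached a mean of 5 CPM in either group without overlap of CPM ranges (predicted symbols skipped), the 4 lowest p-values and the key gene of every list, and 8 differences between ages each way. From that pool those in the text were picked with values in view. The list members C1qb, C3, Ccl24, Ccr2, Col3a1, Fcgr1, Fkbp5, Ighm, Krt8, Ly6g, Mcm6, Mcm7, Msln, Pdpn, Psmb6, Psmd14, Ptx3, Scd2, Sfn, Sftpd, Sgk1, Spp1, Trem2, Vcan and Wnt2 fall outside the rule and were chosen after their values were seen.

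Alternatives were DESeq2 1.42.0, no low-count filter, at least 1 CPM in 4 libraries, upper quartile factors, a replicate block, only the groups compared, limma 3.58.1 on log2(TPM + 1) with a pseudocount of 1, each library left out in turn, and, chosen after seeing the data, removal of each library's trend with GC content. That trend was a lowess curve (span 0.3). Libraries of a group differed by more than sampling noise in every pair, so none was treated as a duplicate deposit of another; this does not show that they come from separate animals. Promoter windows came from RefSeq (GRCm38.p6).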

Additional observations from a re-analysis of the deposited data

Results flagged for a closer look

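In a group of 4 libraries, a value was singled out where the gap between the highest or lowest library and its nearest neighbour was an unusually large part of the range of the group (Dixon's 95% limit). In normal data that limit singles out about 5% of groups by chance, and here 31 of 334 gene and group pairs were singled out. The genes were picked with values in view and share the same libraries, so these shares cannot be compared as a test. Library 1 of the old 1 day group gave 12 of the 31, and library 4 of that group gave none. Apart from the other 3 libraries of its group, library 1 of the old 1 day group stood at 62.7 CPM for Actc1, 4.52 CPM for Aurka, 27.4 CPM for Cd5l, 91.4 CPM for Clca1, 3.85 CPM for Csrp3, 556 CPM for H2-Aa, 40.4 CPM for Mcm5, 48.2 CPM for Mcm7, 39.8 CPM for Mki67, 4.89 CPM for Siglecf, 2.21 CPM for Themis and 24 CPM for Trem2. In library 2 of the old 1 day group the values that stood apart were 713 CPM for Cbr2, 31.9 CPM for Itgb2l and 732 CPM for Ngp. In library 3 of the old 1 day group they were 78.2 CPM for Cxcl5, 28.5 CPM for Fosl1, 3643 CPM for Ighm, 143 CPM for Ptx3 and 9.01 CPM for Trbc2. In old sham library 1 1 value stood apart, 0.0925 CPM for Mup7. In old sham library 2 the values were 27.4 CPM for Gpnmb, 111 CPM for Hspb1, 17 CPM for Nfil3, 0.165 CPM for Saa1 and 21.6 CPM for Wnt10b. In old sham library 3 1 value stood apart, 30.8 CPM for Marco. In old sham library 4 the values were 493 CPM for Actc1, 0.462 CPM for Clca1, 46.2 CPM for Csrp3 and 89.9 CPM for Pln.

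The change from sham to 1 day differed between old and young lung, by edgeR's quasi-likelihood test of the difference with Benjamini-Hochberg adjustment over all genes, for 62 of the 167 genes named, and for 47 of these also with the GC trend removed. Among the 15 that lost the call with the trend removed were Abcg1, Cenpa, Cxcl1, Cxcl13, Cyp2f2, Gapdh, Hspa1b, Hyou1, Il6, Spib and Themis. The values below are those without that adjustment. Of the 62 differences, old minus young on the log2 scale, 27 were positive. The largest positive differences were 17.58 for Mup7, 10.49 for Clca1, 9.02 for Ngp, 8.50 for Alb, 6.94 for Serpina3k, 6.79 for Pla2g2d, 5.11 for Itgb2l, 4.63 for Csf3, 4.43 for Saa1 and 3.84 for Orm1. Smaller ones were 3.36 for Il6, 3.17 for Fosl1, 2.83 for Cxcl1, 2.21 for Fkbp5, 2.18 for Mt2, 1.99 for Cxcl13, 1.88 for Lcn2, 1.82 for Lpl, 1.55 for Sgk1 and 1.51 for Cdkn1a. The smallest were 1.51 for F3, 1.41 for Plat, 1.31 for Nfil3, 1.21 for Themis, 1.19 for Angptl4, 1.09 for Myc and 0.96 for Sqle. The largest negative differences were -3.57 for Gsg1l, -2.82 for Slc26a10, -2.03 for Fcmr, -1.83 for Cd79b, -1.66 for Mcm5, -1.62 for Sdf2l1, -1.52 for Trem2, -1.44 for Aurka, -1.44 for Wnt2 and -1.43 for Inmt. Next came -1.42 for Hspa1b, -1.38 for Ackr4, -1.34 for Spib, -1.33 for Cyp2f2, -1.32 for Cbr2, -1.31 for Colq, -1.11 for Hc, -1.10 for Lyz2, -1.07 for Mcm7 and -1 for Tie1. Further negative differences were -0.96 for Sftpc, -0.95 for Cenpa, -0.94 for Ifitm3, -0.91 for Pcna, -0.91 for Tppp3, -0.86 for Ogn, -0.85 for Lck, -0.84 for Mcm6, -0.82 for Cd68 and -0.67 for Gapdh. The smallest were -0.67 for Abcg1, -0.57 for Hspa8, -0.47 for Psmb6, -0.45 for Hyou1 and -0.39 for Ctsb. Clca1, Csf3, Gsg1l, Mup7, Pla2g2d and Saa1 had 1 or more libraries at 0, and Mup7 and Pla2g2d had all 4 young 1 day libraries at 0, so the size of their difference depends on the prior count of the fit and is no measured fold; the value of Clca1 turned to -2.06 without library 1 of the old 1 day group. Whether any of these differences arises in the GC trend of the young libraries was not tested gene by gene beyond that adjustment.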

How the results depend on the processing

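The numbers of genes higher and lower after 1 day in old lung, and of genes whose change differed between ages, stayed within 1.5 times of the values given under every alternative run. Genes higher numbered 3088 with no low-count filter (30603 tested), 3684 with at least 1 CPM in 4 libraries, 3050 with only the 2 groups fitted (18294 tested), 3015 with upper quartile factors, 3017 with limma on log2(TPM + 1), 3677 with DESeq2 and 3904 with the GC trend removed. Genes lower numbered 3182, 3232, 2707, 3974, 3725, 3808 and 3458 in the same order. The share of higher among called genes was 55.1%, and moved to 43.1% with upper quartile factors and 44.7% with limma. For the difference between ages the share with the higher change in old lung was 50.1%, and 67.0% with limma. Leaving out each library in turn gave 3081 to 3820 higher, 2767 to 3469 lower and 4959 to 6706 with a difference between ages. A fit with the replicate number as a block gave 3847 higher, 3136 lower and, for the difference between ages, 2933 with the higher and 2927 with the lower change in old lung; it did not move any of these counts by more than 1.5 times. The numbers were not taken to pair the libraries, since not every correlation was over 0.1: deviations of same-numbered sham and 1 day libraries correlated at 0.112, 0.512, 0.063 and 0.138, and the 1 day libraries correlated best with sham libraries 4, 2, 2 and 4, so that libraries 2 and 4 matched their own number and libraries 1 and 3 did not. Of the 167 genes named, 158 were called, and 147 kept their direction and side of the threshold under all of up to 16 alternatives. Log2 changes that turned sign belonged to uncalled genes apart from Clca1, which was at -5.24 without library 1 of the 1 day group and at most 12.54 without another library, with a difference between ages of -2.06 without library 1. Leaving out 1 library at a time gave -0.034 to 1.11 for Il6 (-0.34 with limma), -0.13 to 1.76 for Cxcl1, -0.016 to 0.27 for C3, -0.34 to 0.44 for Mki67, -2.79 to 0.26 for Ighm and -0.14 to 0.46 for Cdkn2a. The cause of these shifts was not tested. Rounding up of every transcript and low depth weigh most on genes near 1 CPM, and with 4 libraries a group many changes under 2-fold are not detectable.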

Other observations

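A few genes were far higher in 1 or 2 libraries of the 1 day group than in the others. Clca1, a secreted protein of mucous airway cells, stood at 91.4, 0, 0 and 0 CPM after 1 day and at 0, 0, 0 and 0.462 CPM in sham, and was called higher (log2 change 7.32, SE 2.78, adjusted p = 0.0461) from library 1 alone; leaving out any 1 sham library also ended the call (adjusted p from 0.0913 to 0.102). Alb, the serum albumin made by liver, stood at 0.401, 0.937, 0.242 and 0.273 CPM in sham and 1.09, 0.286, 17.2 and 9.9 CPM after 1 day (log2 change 3.94, SE 0.92, adjusted p = 0.00232), with libraries 3 and 4 the highest. Mup7, a urinary protein gene whose reads are divided uncertainly within a large multigene family, stood at 0, 0.0952, 7.07 and 4.49 CPM after 1 day, again high in libraries 3 and 4. It was called higher (adjusted p = 0.0331), but was not without library 3 (0.0792) or 4 (0.0606) of the 1 day group or without any 1 sham library (0.0803 to 0.0987). Itgb2l, an integrin chain of bone marrow granulocytes, stood at 0.81, 31.9, 3.6 and 3.27 CPM after 1 day, highest in library 2 like Ngp, and its log2 change was 4.59 with and 2.64 without library 2.

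Of 20 senescence and secretory phenotype genes 8 rose and 1 fell (median 0.79), and their per-library medians after 1 day were 0.25, 0.80, 0.74 and 0.17 in order of libraries. Of 17 red cell and platelet genes 2 rose and none fell in edgeR's test (median 0.31). Pf4, which stands among the chemokines as well, was among the rises. The summed level of the list was 2462 to 4655 CPM in sham and 2532 to 9458 CPM after 1 day, highest in library 1. Hemoglobin mRNAs made up 0.956% of the counts in that library, against 0.224% to 0.505% in libraries 2 to 4 and 0.23% to 0.478% in sham. How much blood each library held was not tested. The 13 mRNAs of the mitochondrial genome had a median of -0.36 in old lung with 3 falls, all of them lost without library 4 of the 1 day group or without sham library 1 or 2 and 1 left without library 3, and a median of -1.58 with 13 falls in young lung. Mitochondrial mRNAs made up 2.62% to 3.35% of the counts in young sham and 0.758% to 1.438% in young lung after 1 day. In young lung after 1 h they were low as well, at 1.055% to 1.492%. Pla2g2d, a secreted phospholipase of lymphoid tissue macrophages and dendritic cells, fell by 1.91 on the log2 scale in old lung. In young lung it stood at 1.54 ± 0.328 CPM (SD, n = 4) in sham and at 0 in all 4 libraries after 1 day. The difference between ages passed edgeR's test (adjusted p = 0.00125), but no size is given for it here, since with a group at 0 the fitted value depends on the prior count.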
